A study of Mus musculus with 3008 samples.

Results

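Socs1, Socs2, Socs3, Cish, Stat3, Stat5a, Stat5b, Pim1, Jak1 and Jak3 are 10 genes of the JAK-STAT pathway, chosen by name, and all 10 were among the 23725 genes of the count table. They were followed in 3008 single regulatory T cells (Tregs), a class of CD4+ T cell that holds immune responses in check and is marked by the factor Foxp3. Of these, 2391 came from the wall of the colon (its lamina propria) and the rest from the spleen. The colon cells made a pair of libraries, colon 1 and the larger colon 2 with 1772 cells, and the spleen cells made 1 library about the size of colon 1. All cells came from male mice aged 7 months of the B6 Foxp3-Ires-Gfp strain, in which the Foxp3 gene also drives green fluorescent protein. In every group live TCRb+ CD4+ GFP+ cells were sorted. Colon was digested with collagenase and dispase and spleen was broken up mechanically, so an effect of tissue cannot be told apart from one of digestion. No label ties a library to an animal and spleen has 1 library, so no test across animals was possible. Every interval below is a 95% interval of counting error only, and both colon ratios share the spleen library.

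JAK kinases sit on the inner tails of cytokine receptors. When a cytokine binds, they phosphorylate the receptor and the STAT factors, which then pair, enter the nucleus and switch on target genes. IL-2, the cytokine that Tregs need for survival, signals through JAK1 and JAK3 to STAT5A and STAT5B. IL-6, IL-10 and IL-21 act mainly through STAT3. Cish and the Socs genes are among the targets that STAT factors switch on, and their proteins act back on receptors, JAKs or STATs as brakes. Pim1, another target, encodes a serine/threonine kinase that promotes survival and growth.

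STAT dimers bind the GAS element, written TTCNNNGAA, which reads the same on both strands, and its copies do not overlap in the windows printed here. RefSeq (GRCm38.p6, the same assembly as mm10) held 12 promoter windows for 9 of the 10 genes, each with 250 bases before and 50 after an annotated transcription start. No window was available for Socs2, so its promoter was not searched. Only 2 of the 12 windows, those of Cish and Socs3, held these letters, against 8.30% of the 32851 windows of all genes. With so few windows these shares cannot be compared. Cish held 2 copies, against 0.457% of all windows with 2 or more. They are printed 5′ to 3′ on the strand of the gene with the motif in capitals, beside Socs1 as a window of the same family without it. Cish lies at chr9:107296409-107296708 on the plus strand, Socs3 at chr11:117969317-117969616 and Socs1 at chr16:10785487-10785786, both on the minus strand.
Cish: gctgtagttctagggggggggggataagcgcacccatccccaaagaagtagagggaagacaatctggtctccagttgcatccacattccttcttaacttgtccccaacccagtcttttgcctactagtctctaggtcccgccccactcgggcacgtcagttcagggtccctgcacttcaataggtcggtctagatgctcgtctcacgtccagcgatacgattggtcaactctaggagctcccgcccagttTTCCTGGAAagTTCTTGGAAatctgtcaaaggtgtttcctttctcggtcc
Socs3: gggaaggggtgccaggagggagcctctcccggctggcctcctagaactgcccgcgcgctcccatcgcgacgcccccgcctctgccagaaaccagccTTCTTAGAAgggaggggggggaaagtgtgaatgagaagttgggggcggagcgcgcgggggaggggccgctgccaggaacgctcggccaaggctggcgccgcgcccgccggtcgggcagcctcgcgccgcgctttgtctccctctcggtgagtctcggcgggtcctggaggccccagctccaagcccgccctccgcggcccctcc
Socs1: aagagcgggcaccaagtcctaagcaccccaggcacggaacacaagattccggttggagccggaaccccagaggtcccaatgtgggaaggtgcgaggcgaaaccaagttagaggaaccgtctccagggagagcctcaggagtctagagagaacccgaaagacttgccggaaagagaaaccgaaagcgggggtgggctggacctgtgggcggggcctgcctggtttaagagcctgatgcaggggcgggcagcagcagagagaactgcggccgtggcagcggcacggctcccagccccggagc
The first bases of the Cish motifs, TTCCTGGAA and TTCTTGGAA, lay 0 and 11 bases after the RefSeq start, and the first base of the Socs3 motif, TTCTTAGAA, lay upstream of it (position -154, with the start at 0). The GENCODE vM21 annotation begins Cish 633 bases and Socs3 681 bases upstream of these RefSeq starts, so the windows describe 1 annotated start each. A match of letters is a description of the sequence, and binding was not measured.

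The libraries held 1253246 UMIs (unique molecular identifiers, counts of captured transcripts) in colon 1, 3916649 in colon 2 and 1255946 in spleen, with medians of 1767, 2026.5 and 1847 per cell in the same order. The 8 Treg markers in the table (among them Foxp3, Il2ra, Ctla4 and Ikzf2) had UMIs in all 3 libraries, and 99.4% of colon 1 cells, 99.8% of colon 2 cells and 96.1% of spleen cells held a UMI of at least 1 of them. Of the markers of other lineages, 6 B or plasma cell genes summed to 15.96 counts per 1000000 UMIs (CPM) in colon 1, 11.2 in colon 2 and 11.1 in spleen. The 8 macrophage or dendritic cell genes summed to 233.8 CPM in colon 1 and 225.4 CPM in colon 2, against 105.1 CPM in spleen, nearly all of it Cst3, with Csf1r at 0 in all 3 libraries. The 6 stroma or endothelium genes reached 1815.3, 2728.9 and 560.5 CPM, mostly from Vim, which T cells also express, with Cdh5 at 0. The 7 CD8 or NK cell genes reached 155.6, 116.9 and 195.9 CPM, from Cd8b1, Nkg7 and Ccl5, with Cd8a at 0 to 1.59 CPM, and the 7 colon epithelium genes reached 37.5, 64.9 and 58.1 CPM, mostly from Epcam. Their part in the results was not tested beyond leaving out cells with UMIs of 2 or more such markers (Vim, Nkg7 and Ccl5 not counted), after which the same 3 members were called. A list of 21 dissociation and stress genes (Fosb, Hspa1a and others) summed to 10296 CPM in colon 1 and 11441 in colon 2, against 5726 in spleen. Between 5 and 11 cell barcodes were shared by each pair of libraries. No population in these sorted cells should lack the 10 genes, so no share of cells that free RNA alone would give could be read here.

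Socs2, Cish and Stat3 passed 2-fold over spleen in colon 1 and in colon 2, and none of the 10 genes was 2-fold lower in both. The level used throughout is the CPM of a gene in the summed cells of a library. Of the 10 genes, 9 reached the filter of at least 50 CPM in spleen or in both colon libraries, and Jak3 did not. Over all 3482 genes that reached it, 11.7% were called higher by the same rule and 4.45% lower. With ribosomal protein genes left out of the totals the split was 8.30% higher and 7.67% lower, with the same 3 members called. The median log2 ratio of the 9 genes was 0.75 in colon 1 and 1.27 in colon 2, beside 0.03 and 0.05 over all eligible genes. By the weaker rule that the intervals of both ratios lie above 1, Socs1, Socs3 and Pim1 were higher as well, which makes 6 of 9 beside 28% of all eligible genes. Both intervals lay below 1 for 0 of the 9 genes, beside 21.1% of all eligible genes. The members were chosen with earlier results of these data known, so these shares are descriptions and not tests.

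**Figure D1:**
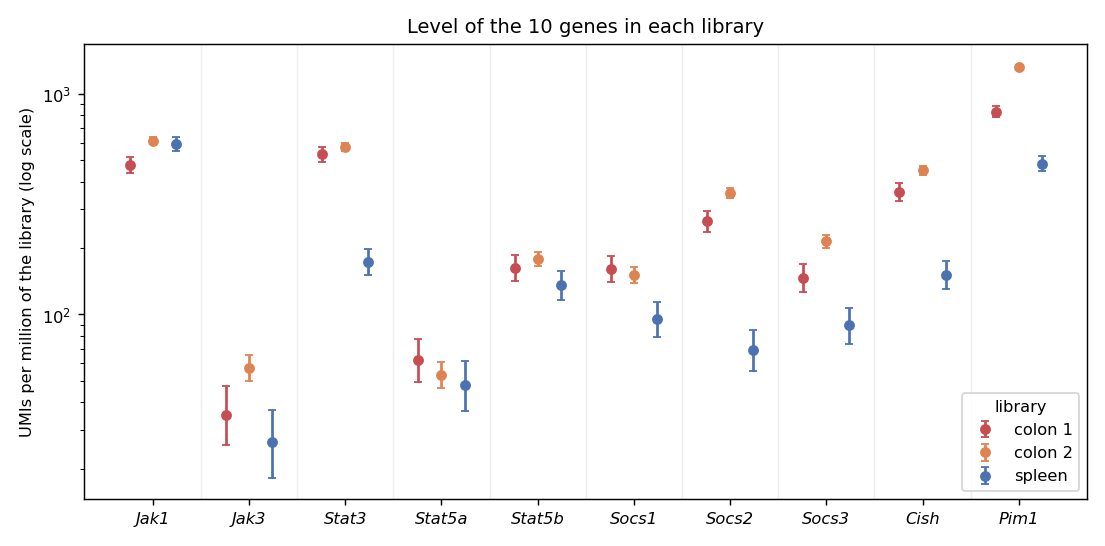
Level of each gene in CPM (vertical log axis) in colon 1, colon 2 and spleen, with points for the values and bars for 95% Poisson intervals. The intervals of Socs1, Socs2, Socs3, Cish, Stat3 and Pim1 stand above spleen in both colon libraries. Those of Stat5a overlap in all 3 libraries.

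Neither receptor-bound kinase differed from spleen beyond counting error in the same direction in both colon libraries. Jak1, which pairs with many cytokine receptors, had 476.4 CPM in colon 1 and 614.04 CPM in colon 2, against 591.6 CPM in spleen. Colon 1 was the lowest of the 3 libraries, and colon 2 and spleen did not differ beyond counting error. The ratio of colon 1 to spleen was 0.805 (0.722 to 0.898) and that of colon 2 was 1.04 (0.956 to 1.13). Jak3, the kinase tied to the common gamma chain of the IL-2 receptor, had 35.1 CPM in colon 1 and 57.2 CPM in colon 2, against 26.3 CPM in spleen, from 44, 224 and 33 UMIs. Colon 2 was highest, and the intervals of colon 1 and spleen overlapped. Its ratios were 1.34 (0.832 to 2.17) in colon 1 and 2.18 (1.51 to 3.24) in colon 2. The Jak3 gene ends within Insl3 on the same strand, and Insl3 had 0 UMIs.

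Among the STAT factors the colon cells differed from spleen mainly in Stat3. Stat3, which carries IL-6, IL-10 and IL-21 signals, had 531.4 CPM in colon 1 and 572.2 CPM in colon 2, against 172.8 CPM in spleen. The colon libraries did not differ beyond counting error, and both lay above spleen, at ratios of 3.08 (2.63 to 3.602) and 3.31 (2.88 to 3.82). Stat5a had 62.2 CPM in colon 1 and 53.4 CPM in colon 2, against 47.8 CPM in spleen. The ratios of this IL-2-responsive factor were 1.30 (0.919 to 1.86) and 1.12 (0.835 to 1.51), so no difference was detectable at this depth. Its close paralog Stat5b had 162.8 CPM in colon 1 and 177.96 CPM in colon 2, against 135.4 CPM in spleen. Stat5b gave ratios of 1.20 (0.976 to 1.48) and 1.31 (1.11 to 1.56), and its colon 2 interval alone lay above 1. The 3 genes are neighbours on chromosome 11. Stat3 (chr11:100885098-100939540, minus strand) and Stat5a (chr11:100859351-100885169, plus strand) overlap by 72 bases at both 3′ ends, where these tags fall, and the labels do not say whether strand was used in counting. Reads from that overlap may therefore have been given to either gene.

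The genes for the brakes were higher in colon to unequal degrees. SOCS2, best known as a brake on growth hormone receptor signalling, came from the gene with the widest gap. Socs2 had 264.1 CPM in colon 1 and 354.9 CPM in colon 2, against 69.3 CPM in spleen. Colon 2 exceeded colon 1, and both exceeded spleen, by 3.81-fold (3.002 to 4.89) and 5.12-fold (4.12 to 6.44). Cish, the STAT5 target whose protein CIS dampens IL-2 receptor and T cell receptor signals, had 359.1 CPM in colon 1 and 451.7 CPM in colon 2, against 151.3 CPM in spleen. The order was again colon 2, colon 1 and spleen, at ratios of 2.37 (1.999 to 2.83) and 2.99 (2.57 to 3.49). Socs1, an inhibitor of JAK kinases that limits interferon gamma signalling, had 161.2 CPM in colon 1 and 151.1 CPM in colon 2, against 95.5 CPM in spleen. For Socs1 the colon libraries did not differ beyond counting error, and the ratios to spleen stayed under 2, at 1.69 (1.34 to 2.13) and 1.58 (1.30 to 1.94). Socs3, the brake on gp130 receptors and thereby on STAT3, had 146.8 CPM in colon 1 and 214.5 CPM in colon 2, against 89.2 CPM in spleen. Its ratios of 1.65 (1.29 to 2.10) and 2.41 (1.97 to 2.96) passed 2-fold in colon 2 alone.

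Pim1 had 832.2 CPM in colon 1 and 1320.8 CPM in colon 2, against 483.3 CPM in spleen. All 3 libraries were apart for this survival kinase, with ratios to spleen of 1.72 (1.56 to 1.91) and 2.73 (2.51 to 2.98). Colon 2 over colon 1 was 1.59 for Pim1, 1.46 for Socs3, 1.34 for Socs2, 1.29 for Jak1 and 1.26 for Cish. These 5 of the 9 eligible genes had intervals above 1 between the colon libraries, beside 22.9% of all eligible genes, and 0 of 9 had an interval below 1, beside 18.9%. Jak3, under the filter, had a ratio of 1.63. The median cell had 49.8 mapped reads per UMI in colon 1, 20.6 in colon 2 and 45.8 in spleen, and the part of this in the gap between the colon libraries was not tested. Without colon 1, 6 of 10 eligible members were called higher (Jak3, Pim1 and Socs3 were added), beside 15.3% of all eligible genes. Jak3 then reached the filter through colon 2 alone. Without colon 2, 3 of 9 were called higher, beside 13.1% of all eligible genes.

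**Figure D2:**
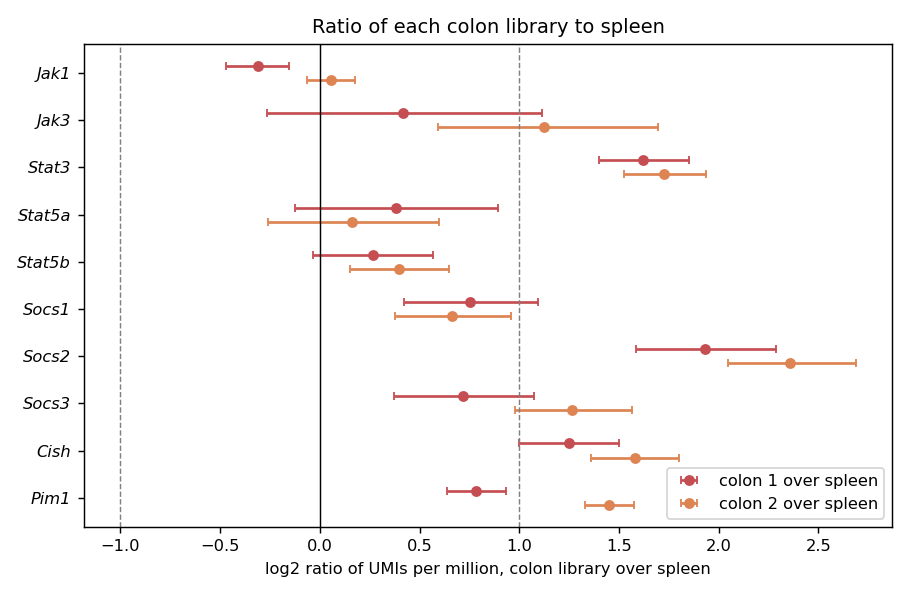
Log2 ratio of the CPM of colon 1 and of colon 2 over spleen (horizontal axis) for each gene, with 95% exact conditional binomial intervals, and dashed lines that mark a 2-fold difference. Socs2, Cish and Stat3 lie beyond 2-fold higher in both colon libraries, and Jak1 lies on both sides of 0.

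The 79 other pathway genes give the setting for these values. Of the 56 that reached the filter, 19 were called higher in colon and 3 lower, beside 11.7% and 4.45% of all eligible genes. The median log2 ratios of the 56 were 0.70 in colon 1 and 0.68 in colon 2. With ribosomal protein genes left out of the totals, 13 of 59 eligible pathway genes were called higher and 5 lower. Under that scaling the shares of all eligible genes were 8.30% and 7.67%. The 6 no longer called higher were Bcl3, Junb, Hif1a, Il7r, Prdm1 and Tnfrsf18. Jak2, the kinase of the interferon gamma and IL-12 family receptors, had 236.98 CPM in colon 1 and 276.5 CPM in colon 2, against 60.5 CPM in spleen. Its ratios of 3.92 and 4.57 were thus larger than those of Jak1 and Jak3. Pim3, a second PIM kinase, had 88.6 CPM in colon 1 and 95.7 CPM in colon 2, against 19.9 CPM in spleen, a difference of 4.45-fold and 4.81-fold. It was not called among the cells with the lowest share of stress genes. Pim3 reached the filter through the colon libraries alone, so with spleen at 19.9 CPM its call followed from the filter. Of the STAT factors outside the 10 genes, Stat4 and Stat6 reached the filter and were not called. Stat4, the IL-12 factor, had ratios of 1.96 and 2.23 and was called higher with TMM or median of ratios scaling, and Stat6, the IL-4 factor, had 0.818 and 1.42. Socs4, Socs5, Socs6 and Socs7 were all under the filter in all 3 libraries.

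Receptor chains on the pathway lists were called higher in colon in 6 of 17 eligible cases and lower in 0. Among all eligible genes the shares were 11.7% and 4.45%. In the common gamma chain family 3 of 6 were called higher, namely Il21r at 3.13-fold and 4.74-fold, Il4ra at 3.26-fold and 3.85-fold, and Il7r at 2.13-fold and 2.14-fold. The Il7r call was lost with ribosomal protein genes left out of the totals. The chains of the IL-2 receptor itself were not called. Il2ra, the high-affinity chain, had 608.02 CPM in colon 1 and 841.8 CPM in colon 2, against 339.2 CPM in spleen. Il2rb had 446.8 CPM and 418.7 CPM in colon 1 and colon 2, against 301.8 CPM in spleen. The shared chain Il2rg had 908.8 CPM and 884.2 CPM in colon 1 and colon 2, against 640.95 CPM in spleen. All 3 chains had intervals above 1 in both colon libraries, at ratios between 1.38 and 2.48. Among the other receptors 3 of 11 were called higher. Il17ra, at ratios of 0.546 and 0.594, was not called lower but had both intervals below 1. It is counted on this list although the receptor it encodes is not of the JAK-bound class. Ifngr1, the binding chain for interferon gamma, reached 8.62-fold and 8.84-fold, Il12rb1 reached 4.89-fold and 5.58-fold, and Il6st, which encodes gp130, reached 2.66-fold and 4.06-fold. Il12rb1, at 13.5 CPM in spleen, reached the filter through the colon libraries alone, so its call followed from the filter.

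Brakes other than the SOCS family were not called higher in any of 8 eligible genes, and 2 were called lower. Over all eligible genes 11.7% were called higher and 4.45% lower. Ptpn6, which encodes the phosphatase SHP-1, had ratios of 0.320 and 0.465. Usp18, an interferon-induced brake on the type I interferon receptor, had 5.59 CPM in colon 1 and 1.79 CPM in colon 2, against 51.0 CPM in spleen, from 7, 7 and 64 UMIs. All 7 in colon 1 came from 1 cell. Ptpn6 and Usp18 reached the filter through spleen alone, and with these colon levels the call of Usp18 followed from the filter. Usp18 lost its call under median of ratios scaling, Ptpn6 among the cells with the lowest share of stress genes, and both with each cell given equal weight. Ptpn11, the SHP-2 phosphatase gene, had ratios of 1.67 and 1.20 and was not called. Genes listed as STAT3 targets were called higher in 6 of 8 eligible cases (Bcl3, Junb, Maf, Hif1a, Il10 and Nfkbiz), beside 11.7% of all eligible genes. With ribosomal protein genes left out of the totals, 3 of these (Il10, Maf and Nfkbiz) were called. The lists were chosen with earlier results of these data known, so these shares are descriptions and not tests. Il10, at 43.0 CPM in spleen, reached the filter through the colon libraries alone. Il10, the anti-inflammatory cytokine, was 31.7-fold and 34.9-fold higher, Maf was 5.07-fold and 5.94-fold higher, and Nfkbiz was 4.68-fold and 4.23-fold higher. Junb is also one of the dissociation and stress genes. Of the STAT5 targets 5 of 13 were called higher and 1 lower, beside 11.7% and 4.45% of all eligible genes. Gzmb (granzyme B) was 63.9-fold and 64.2-fold higher and the costimulatory receptor gene Icos was 8.23-fold and 12.5-fold higher. Bcl2, the survival gene, was 7.46 and 5.10 times lower. At 16.8 CPM in colon 1 and 24.5 CPM in colon 2, Bcl2 reached the filter through spleen alone, so its call followed from the filter. Among those called higher, Gzmb and Prdm1, at 41.4 and 35.0 CPM in spleen, reached the filter through the colon libraries alone. Most of these targets respond to other signals too, so their levels are not a measure of STAT activity.

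**Figure D3:**
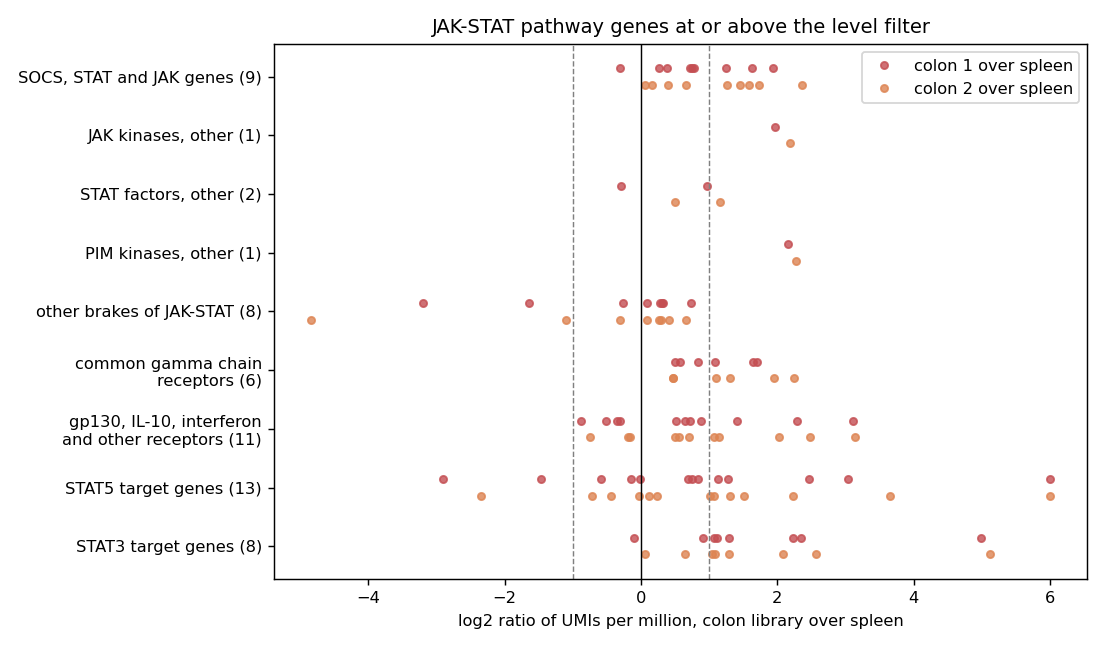
Log2 ratio of the CPM of colon 1 and colon 2 over spleen (horizontal axis) for the genes described here that reached the filter of 50 CPM, by list, with the number of genes in brackets and 1 point per gene and colon library. Dashed lines mark 2-fold. The STAT3 targets lie mostly to the right of 2-fold.

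Differences in level were also seen as differences in the share of cells with a UMI. Each cell was thinned to 1000 UMIs, which left out 9 shallower cells of colon 1, 28 of colon 2 and 4 of spleen. Stat3 was seen in 27.7% of colon 1 cells and 33.5% of colon 2 cells, against 12.6% of spleen cells. The spleen interval of 10.04% to 15.4% lay below both colon intervals. Socs2 was seen in 14.9% of colon 1 cells and 19.8% of colon 2 cells, against 3.92% of spleen cells (2.52% to 5.77%), which again left no overlap. Cish was seen in 22.6% and 27.6% of colon 1 and colon 2 cells, against 11.1% of spleen cells. Pim1 was seen in 37.4% and 52.1% of colon 1 and colon 2 cells, against 25.3% of spleen cells. For both genes the intervals of the 3 libraries were apart, except those of Cish in colon 1 (19.4% to 26.2%) and colon 2 (25.5% to 29.8%).

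Shares for the remaining genes were closer. Socs1 was seen in 12.95% of colon 1 cells and 11.1% of colon 2 cells, against 7.34% of spleen cells. Socs3 was seen in 10% of colon 1 cells and 15.3% of colon 2 cells, against 7.99% of spleen cells, and its colon 1 and spleen intervals overlapped. Stat5a was seen in 4.26% of colon 1 cells and 5.22% of colon 2 cells, against 4.89% of spleen cells. Stat5b was seen in 11.0%, 14.6% and 10.6% of cells in colon 1, colon 2 and spleen, and Jak1 in 30.3%, 38.1% and 34.6%. Jak3 was seen in 3.77%, 4.70% and 2.12% of cells in the same order. Without thinning, all shares were higher, from 4.05% for Jak3 in spleen to 64.4% for Pim1 in colon 2.

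How far UMIs were spread over cells differed between libraries and genes. The 10 highest cells held 11.3% of the Pim1 UMIs in colon 1 and 4.43% in colon 2, against 18.6% in spleen. For Socs2 they held 22.7% in colon 1 and 8.42% in colon 2, against 51.7% of the 87 UMIs in spleen. For Jak3, the lowest of the 10 genes, they held 34.1% and 21.4% in colon 1 and colon 2, against 54.5% in spleen. Colon 2 has the most cells, so these shares are not compared between libraries. Among thinned cells with Socs2, the mean was 1.79 UMIs per cell in colon 1 and 1.83 in colon 2, against 1.62 in spleen. For Stat3 it was 1.98 in colon 1 and 1.63 in colon 2, against 1.39 in spleen. Over all thinned cells Stat3 averaged 0.548 UMIs in colon 1 and 0.548 in colon 2, against 0.175 in spleen, and at means this low more cells with the transcript and more transcript per cell cannot be told apart. At this depth a cell without a UMI may still hold the transcript.

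At least 1 of the 4 brakes Socs1, Socs2, Socs3 and Cish was seen in 48.4% of colon 1 cells (44.3% to 52.4%) and 56.7% of colon 2 cells (54.3% to 59.05%), against 26.3% of spleen cells (22.8% to 29.9%). Cells with 2 or more of them made 10.8% of colon 1 and 14.3% of colon 2, against 3.92% of spleen. Whether the genes met in the same cells was read from counts of thinned cells with both, set beside the product of both shares. Of 45 pairs of the 10 genes, 36 had at least 5 cells predicted in both colon libraries, and 0 of these were 1.5 times above or below the product in both. Socs1 with Socs3 was seen in 8 cells of colon 1 beside 7.90 predicted, and in 44 cells of colon 2 beside 29.7 predicted. Socs2 with Socs3 was seen in 7 and 41 cells beside 9.10 and 52.8 predicted. With another random thinning the colon 2 counts were 35 beside 28.1 for Socs1 with Socs3 and 57 beside 51.7 for Socs2 with Socs3, so the direction of the second pair depended on the thinning. Across single colon cells, the gene most like a member was Nfkbia, the NF-kB inhibitor, for Pim1, with Pearson r of 0.22 in colon 1 and 0.27 in colon 2, and 0.22 in spleen. No other gene reached 0.2 in both colon libraries for any of the 10 genes.

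Within the colon the STAT5 genes and several brakes differed between clusters of cells in opposite directions. Cells were clustered on other genes, with the 10 genes and the pathway lists left out, and 4 clusters held at least 50 cells of each colon library. Cluster 1 was led by Emp1, Tmem176b, Angptl2, Rcbtb2 and Csf1. Cluster 2 was led by Dgat2, Pxdc1, Penk, Il1rl1 and Plac8, with 6 of 6 measured markers of GATA3-ST2 Tregs, which makes it GATA3-ST2 Treg-like. Cluster 3 was led by Hspa1a, Hspa1b, Fosb, Jun and Hsph1, with 12 of 18 measured dissociation and stress genes at least 2-fold up. Cluster 4 was led by Hey1, Ccr7, Fam43a, Tbc1d4 and Bcl6, with 5 of 8 markers of resting lymphoid-organ T cells and 3 of 3 of follicular-like Tregs. It held 11.1% of colon 1 and 10.7% of colon 2 cells. Cluster 0 held 97.7% of spleen cells, so clusters cannot be compared within spleen.

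By a rule that asks for the same highest and the same lowest cluster in both colon libraries and at least 2-fold between them, Socs1, Socs2, Stat5a and Stat5b differed between clusters. These are 4 of 9 eligible members, beside 8.13% of all eligible genes and 6.1% of the eligible genes that the clustering did not use. With coarser clusters Socs1 was no longer among them and Cish was. The Stat5 genes were highest in cluster 4. Stat5a had 175.1 CPM in colon 1 and 123.2 CPM in colon 2 in cluster 4, and between 9.87 and 52.8 CPM in the other 3 clusters, where the lowest value is from 1 UMI. Stat5b had 281.7 CPM in colon 1 and 355.5 CPM in colon 2 in cluster 4, and between 108.5 and 171.9 CPM in the others. Both cluster 4 values of each gene also lay above the 43.0 CPM of Stat5a and the 136.4 CPM of Stat5b in spleen cluster 0.

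Socs2, Socs1 and Cish ran the other way. In cluster 4 Socs2 had 106.6 CPM in colon 1 and 72.04 CPM in colon 2, beside 68.6 CPM in spleen cluster 0. In the GATA3-ST2 Treg-like cluster 2, where it was highest among these 4 clusters, it had 353.6 CPM in colon 1 and 429.8 CPM in colon 2. Socs1 had 68.5 CPM in colon 1 and 62.7 CPM in colon 2 in cluster 4, beside 97.5 CPM in spleen cluster 0, and its highest values among these 4 clusters, 414.4 CPM and 276.8 CPM, were in cluster 3. Cish was lowest in cluster 4 as well, at 121.8 CPM in colon 1 and 192.9 CPM in colon 2, beside 152.9 CPM in spleen cluster 0. Its highest of the 4 clusters differed between the colon libraries (cluster 3 at 473.6 CPM in colon 1 and cluster 2 at 621.5 CPM in colon 2). For these 3 brakes the cluster 4 intervals of both colon libraries overlapped those of spleen cluster 0, which does not show equal levels. Stat3 was different. In cluster 4 it had 647.1 CPM in colon 1 and 687.8 CPM in colon 2, beside 174.4 CPM in spleen cluster 0, and in all 4 clusters it exceeded the spleen value. Socs3 ranged from 121.8 to 227.7 CPM over the 4 clusters with no shared order. Cluster 5, led by Ccl4, Iigp1, Tbx21, Ifit1 and Cxcl10, had 74 cells in colon 2 and 28 in colon 1, so it was read in colon 2 alone, with 417.5 CPM of Socs1, 366.7 CPM of Socs3 and 716.5 CPM of Cish.

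**Figure D4:**
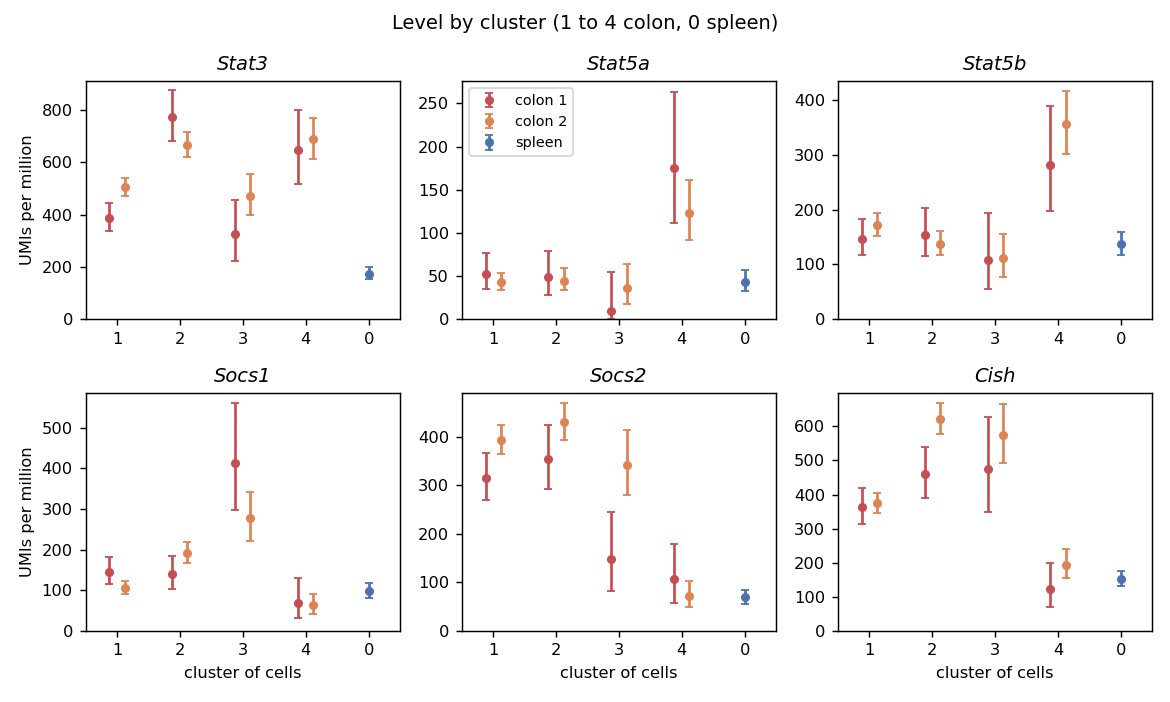
Level in CPM (vertical axis, from 0) of 6 genes in the 4 colon clusters with at least 50 cells in both colon libraries and in spleen cluster 0, with 95% Poisson intervals. In cluster 4 Stat5a and Stat5b are highest, while Socs1, Socs2 and Cish lie near the spleen value and Stat3 lies above it.

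Several of these genes also moved with the dissociation and stress genes, which were higher in colon. Cells of each library were split in 3 equal groups (low, middle and high) by the share of their UMIs in those genes, which averaged 0.477% in the low and 1.85% in the high group of colon 1, 0.555% and 1.96% in colon 2, and 0.300% and 0.911% in spleen. High over low group, Pim1 was 1.67 in colon 1 and 1.90 in colon 2, against 1.22 in spleen. Cish was 1.80 in colon 1 and 1.60 in colon 2, against 1.51 in spleen, and Socs1 was 1.59 and 1.70, against 1.22 in spleen. The intervals of the low and high groups were apart for Pim1 and Cish in both colon libraries and for Socs1 in colon 2, and overlapped for Socs1 in colon 1 and for all 3 genes in spleen. Stat3 differed less, at 1.05 in colon 1 and 0.943 in colon 2, against 0.782 in spleen. Stat5a was at 0.605 in colon 1 and 0.653 in colon 2, against 0.732 in spleen, with overlapping intervals in all 3 libraries. Socs2 was at 1.04 in colon 1 and 1.36 in colon 2, against 0.639 in spleen. The Socs2 intervals of the low and high groups were apart in colon 2 alone.

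For every member but Jak1, the low group of both colon libraries lay above the high group of spleen in level. Only for Stat3 and Socs2 were the intervals apart in both colon libraries. Stat3 had 532.7 CPM in the low group of colon 1 and 585.6 CPM in that of colon 2, against 191.7 CPM in the low group and 149.9 CPM in the high group of spleen. Cish had 273.03 and 324.7 CPM in the low group of colon 1 and colon 2, against 123.05 CPM in the low group and 185.5 CPM in the high group of spleen. For Cish the intervals of the colon 1 low group (226.9 to 325.8 CPM) and the spleen high group (145.4 to 233.2 CPM) overlapped. Socs2 had 270.8 and 293.2 CPM in the low groups of colon 1 and colon 2. In spleen Socs2 had 99.4 CPM in the low group and 63.5 CPM in the high group. In the low groups alone Socs2, Cish and Stat3 were called higher in colon by the same rule. Each group of spleen holds a lower share of stress transcripts than the group of that name in colon, so the split does not match the tissues. The high group of spleen, at 0.911%, holds a higher share than the low groups of colon 1 and colon 2, at 0.477% and 0.555%. The part of dissociation in the ratios was not tested beyond this split.

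**Figure D5:**
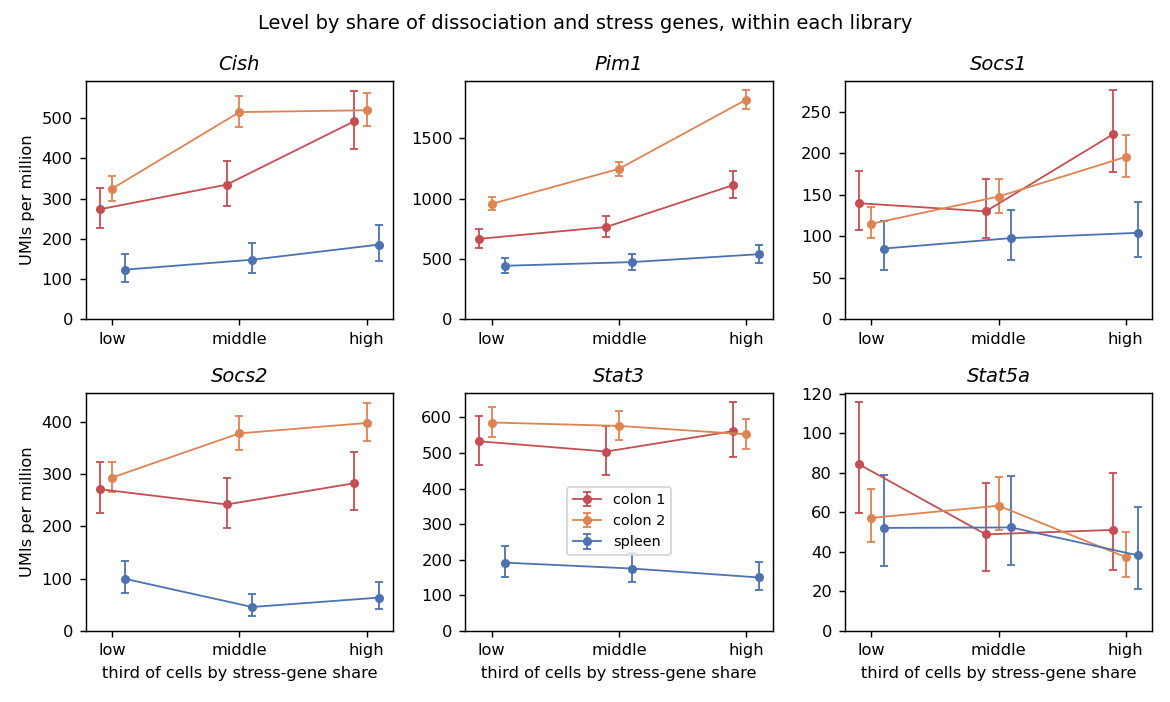
Level in CPM (vertical axis, from 0) of 6 genes in the low, middle and high group of cells by their share of dissociation and stress genes in colon 1, colon 2 and spleen, with 95% Poisson intervals. Pim1 and Cish have intervals in the high group above those of the low group in both colon libraries, and Stat3 stays above the spleen values in all groups.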

How the data were processed

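Transcripts of single sorted Tregs were counted by inDrops (droplet capture with oligo-dT primers, in vitro transcription and NextSeq500 sequencing, per the labels' protocols). TopHat2, SAMtools and mm10 are named in the submitters' processing notes. Parameters, annotation, strand setting and cell filter were not given in the sources used here. Unscaled counts of UMIs for each gene in each cell were deposited by the authors. Every column matched a labelled cell (0 left out), and the deposited sheet of cell labels was not used. The 3 libraries are not replicates of 1 tissue by any stated animal, so no p-value was computed.

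CPM are a library's summed counts over its total, times 1000000. Ratios have exact conditional binomial intervals, levels exact Poisson intervals and shares exact Clopper-Pearson intervals, at 95%, and these cover counting error only. A gene at 0 was set to 3 counts. Eligible genes had at least 50 CPM in spleen or in both colon libraries, and a call needed 2-fold in both colon libraries. Intervals and calls were tested on library sums drawn from a Poisson model, which is the one the intervals assume. Spread between cells or animals beyond that model was not simulated. Shares used cells thinned to 1000 UMIs, which left out 9 cells of colon 1, 28 of colon 2 and 4 of spleen. Doublets were not called, since the table had been filtered to these cells. Clusters (scanpy 1.11.5) used 2000 variable genes, 20 components, 15 neighbours and Leiden at 0.8, without batch correction and without 89 member and pathway genes. Positions are from GENCODE vM21 and promoters from RefSeq.

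The members, lists and rules were chosen with earlier results of these data known. The genes named are the 10 members, up to 3 eligible genes per pathway list, those whose mean log2 ratio was farthest from 0, the 3 IL-2 receptor chains, genes with r of at least 0.2 to a member in both colon libraries and up to 5 leading genes per cluster. The alternatives were edgeR 4.0.16 TMM, median of ratios, leaving ribosomal protein genes out of the totals, other filters and fold thresholds, equal weight per cell, and leaving out cells or 1 colon library. A factor and its target list enter the pathway totals and are not reported here by name.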

Additional observations from a re-analysis of the deposited data

How the results depend on the processing

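Socs2, Cish and Stat3 were the genes called higher in colon under each of the 8 other scalings and choices of cells and under both other filters. The count of 3 became 6 at 1.5-fold (Socs1, Socs3 and Pim1 added), beside 19.5% of all eligible genes, and 0 at 4-fold, beside 4.82%. Leaving out colon 1 gave 6, beside 15.3%, and leaving out colon 2 gave 3, beside 13.1%. The count called lower was 0 under all alternatives. Of the pathway genes, the 19 called higher became 29 at 1.5-fold and 9 at 4-fold, and the 3 called lower became 5 at 1.5-fold, 5 with totals without ribosomal protein genes, 7 at 20 CPM and 8 with no filter. Of the 3 pathway genes called lower in the main setting, Usp18 was lost under median of ratios, and Ptpn6 at 4-fold and in the cells with the lowest stress share. Both were lost with equal weight per cell. Totals without ribosomal protein genes shifted the median over all eligible genes to -0.18 on the log2 scale, against 0.02, and 8.30% of eligible genes were called higher and 7.67% lower, against 11.7% and 4.45%. Under that scaling the mean log2 ratios were 0.07 for Stat5a and 0.13 for Stat5b, and Jak1 was at -0.33. Over 10 alternatives each, the mean log2 ratio was positive in all for 9 of the 10 genes, and for Jak1 in 1 (0.05 without colon 1). The one value to leave its counting interval was Socs2 in the cells with the lowest stress share, at 1.503 against 2.14. There spleen Socs2 was at 99.4 CPM. With Leiden resolution 0.4, 4 genes differed between clusters (Socs2, Cish, Stat5a and Stat5b), 3 of them shared with the 4 at 0.8. A second thinning seed again named 0 pairs. No paired analysis was possible because the labels name no animal for any library. Depth limits Jak3, Stat5a and the smaller clusters most.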

Other observations

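The next values were chosen after seeing the data and are descriptions. They were picked from all 10 genes split by each of the 3 IL-2 receptor chains in each library. Thinned cells were split by whether they held a UMI of Il2ra, the high-affinity IL-2 receptor chain. Cish was seen in 25.7% of 202 Il2ra-positive cells of colon 1 and 31.7% of 785 of colon 2, against 21.1% and 24.3% of the Il2ra-negative cells of colon 1 and colon 2. In spleen it was seen in 19.2% of Il2ra-positive cells (12.7% to 27.2%) and 9.02% of Il2ra-negative cells (6.63% to 11.9%). The intervals were apart in colon 2 and spleen and overlapped in colon 1. Pim1 followed in colon 2, at 56.3% of Il2ra-positive and 48.7% of Il2ra-negative cells. Stat5b ran the other way there, at 11.8% of Il2ra-positive (9.67% to 14.3%) and 16.8% of Il2ra-negative cells (14.5% to 19.3%). In spleen Socs2 was seen in 8% of Il2ra-positive and 2.87% of Il2ra-negative cells, with overlapping intervals. Cells with a UMI of Il2rg differed little from the other cells for Cish, at 21.4% and 23.6% in colon 1 and 27.1% and 28.1% in colon 2. Split by Il2rb, Pim1 was seen in 29.5% of positive and 40.1% of negative cells of colon 1, with overlapping intervals. Thinned to equal depth, cells can still differ in total RNA and in cell state, which was not tested.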
